A study of Mus musculus with 6 samples.

Results

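A set of 10 genes that mark or control the epithelial state was followed in 4T1 cells, a mouse mammary carcinoma line often taken to model triple-negative breast cancer. They were chosen by name from the 26094 genes listed. Cdh1 and Epcam encode adhesion molecules, Grhl2, Esrp1 and Esrp2 encode epithelial regulators, Zeb1, Zeb2, Snai1 and Snai2 encode transcription factors of the epithelial-to-mesenchymal transition (EMT), and Vim encodes the intermediate filament vimentin. Messenger RNA was sequenced from 3 libraries of cells with a lentiviral pLVX-IRES-neo vector carrying mouse Limch1 (Limch1_OE) and from 3 libraries of cells with the empty vector (Vector). LIMCH1 is an actin-associated protein that activates non-muscle myosin II. Virus had been packaged in HEK293T cells, a human embryonic kidney line, and both groups were antibiotic-selected stable lines. No uninfected cells were analysed here. Whether replicate libraries stem from separate infections or cultures is not stated in the labels, and p-values therefore rest on a spread between libraries that may be technical.

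In epithelial cells, E-cadherin (Cdh1) joins neighbouring cells through its catenin-bound tail, and EPCAM modulates that adhesion. GRHL2 is a transcription factor that activates epithelial junction genes, and ESRP1 and ESRP2 are RNA-binding proteins that keep epithelial splice forms. SNAIL and ZEB proteins repress epithelial genes, Cdh1 among them, by binding E-box motifs, and GRHL2 and ZEB1 repress each other. Vimentin is carried by mesenchymal cells and by many carcinoma lines. Breast carcinoma cells often hold epithelial and mesenchymal genes at the same time.

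Levels are FPKM (fragments normalised for transcript length and library size) summed over the listed transcripts of a gene. A gene was tested where it reached 1 FPKM in at least 3 libraries, which 11842 genes did. Changes are log2 fold changes of FPKM + 1, Limch1_OE minus Vector, by limma, with p-values adjusted over all 11842 genes (Benjamini-Hochberg) and called under 0.05. For genes with low values this scale gives changes that are too small. Epcam and Cdh1 fell in Limch1_OE, and Vim and Zeb2 rose. Grhl2, Esrp1, Esrp2 and Snai1 did not pass the test, and Zeb1 and Snai2 lay below 1 FPKM in every library. Among all tested genes, 34.6% passed the test, 20.2% as higher and 14.4% as lower, so 2 higher and 2 lower among the 8 tested genes described here does not depart far from that background. After median scaling the calls over all genes were 1876 higher and 2038 lower, against 2388 and 1706 without it, and the same 2 and 2 of these genes were called. Groups did not overlap for 4 of the 8, and for 49.1% of all tested genes.

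**Figure D1:**
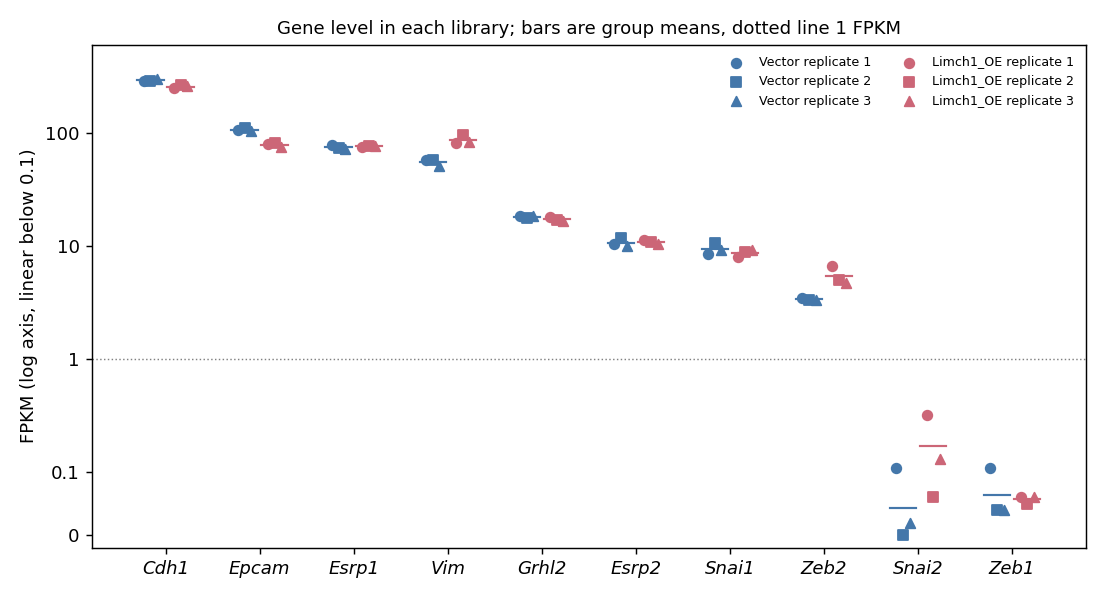
FPKM of each gene (log vertical axis, linear below 0.1) in the 3 Vector libraries (blue) and the 3 Limch1_OE libraries (red), with symbols for replicates, bars for group means and a dotted line at 1 FPKM. Epcam, Cdh1, Vim and Zeb2 separate by group, whereas Snai2 and Zeb1 lie below the line in every library.

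Limch1 itself stood at 0.25, 0.15 and 0.1 FPKM in Vector replicates 1 to 3 and at 23.96, 23.31 and 25.69 FPKM in Limch1_OE, as the labels say. The FPKM of a library summed to between 414837 and 425064, and the sequencing depth behind the values is unknown. The cells carried mammary epithelial markers throughout. Krt18, a simple-epithelial keratin, ranged from 532.46 to 637.27 FPKM. The 7 epithelial markers summed to 1490 to 1560 FPKM in Vector and 1470 to 1620 FPKM in Limch1_OE. Cdh1 and Epcam are among these markers, so the sum is not independent of the genes studied, and it does not show their decrease. Of 10 fibroblast markers 8 stayed below 1 FPKM in every library or were not listed, with Col1a1 at most 0.07 FPKM, and the list summed to 7.69 to 7.94 FPKM in Vector and 9.67 to 10.7 FPKM in Limch1_OE. Postn, a matricellular protein gene, made up most of that sum and rose by 0.41, with its most abundant transcript alone at -0.34 and not called. Of 10 leukocyte markers 9 were below 1 FPKM or not listed, Ptprc (CD45) at most 0.01 FPKM, and Cd68 made up nearly all of a sum of 23.8 to 28.6 FPKM in Vector and 30.2 to 35.6 FPKM in Limch1_OE. All 6 endothelial markers were below 1 FPKM. Transcripts of the mitochondrial genome took 4.76 to 5.57% of FPKM in Vector and 6.31 to 8.73% in Limch1_OE, and the nuclear RNA Malat1 ranged from 40.23 to 45.19 and from 77.59 to 91.46 FPKM. The part of these shifts in the changes described here was not tested.

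Sequences of 2 kinds are described, the E-boxes that SNAIL and ZEB proteins can read and the exons that ESRP proteins keep. The part of the E-boxes in the changes was not tested. RefSeq promoter windows (GRCm38.p6, 250 bases before to 50 after a gene's start) were at hand for 4 of the 10 genes, Epcam, Snai1, Vim and Zeb2. The motif searched was CACCTG on either strand (CAGGTG on the other), which 20.3% of 32544 distinct windows held. The Epcam window held 2, starting 187 and 19 bases before the annotated start, and the Snai1 window held 1, starting 126 bases before it. The Vim window and the several Zeb2 windows held none. AACCGGTT, a form of the GRHL motif that 0.147% of windows held, was in no window of these 4 genes. The listed transcript that begins nearest to the Vim start used here, 11 bases away, was ENSMUST00000155605, at 0.06 to 0.43 FPKM. A match is a description of the letters, not evidence of a bound site. The stretches before the start of Epcam (chr17:87635729-87635978, plus strand), which fell, and of Snai1 (chr2:167537945-167538194, plus strand), which was not called, are shown 5′ to 3′ with the motif in capitals. The most abundant listed Epcam transcript, ENSMUST00000234623, is annotated to begin 703 bases downstream of the start used here. It held 99.2 to 100% of the gene's FPKM in each library. ENSMUST00000053577, which begins at the start used here, reached at most 0.03 FPKM, so the window lies before a start with almost no assigned FPKM.
Epcam: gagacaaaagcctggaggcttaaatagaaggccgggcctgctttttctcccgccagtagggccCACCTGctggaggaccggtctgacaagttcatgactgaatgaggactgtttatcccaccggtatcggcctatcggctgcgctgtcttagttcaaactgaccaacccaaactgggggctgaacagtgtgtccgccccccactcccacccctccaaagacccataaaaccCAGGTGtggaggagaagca
Snai1: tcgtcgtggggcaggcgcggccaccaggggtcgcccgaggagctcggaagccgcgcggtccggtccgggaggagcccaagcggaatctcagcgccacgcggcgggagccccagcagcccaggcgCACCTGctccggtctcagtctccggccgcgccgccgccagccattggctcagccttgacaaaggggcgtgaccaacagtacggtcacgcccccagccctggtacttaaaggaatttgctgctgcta

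The exons that tell ESRP-dependent forms apart are shown next, because the transcript results rest on them. The Fgfr2 IIIb exon (chr7:130199758-130199905, minus strand, 148 bases) gives the epithelial form of a fibroblast growth factor receptor and is used in place of the IIIc exon. Exon 11a of Enah (chr1:181911597-181911659, minus strand, 63 bases) gives the epithelial form of an actin regulator. Both are coding, come from GENCODE M21 transcripts on mm10 and are printed 5′ to 3′ in lower case with no part marked.
Fgfr2 IIIb: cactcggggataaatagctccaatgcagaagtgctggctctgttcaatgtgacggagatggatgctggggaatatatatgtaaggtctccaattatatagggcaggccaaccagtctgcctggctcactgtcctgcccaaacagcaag
Enah 11a: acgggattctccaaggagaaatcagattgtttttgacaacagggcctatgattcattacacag

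Epcam (ENSMUSG00000045394, mm10 chr17:87635979-87651129, plus strand), a homophilic adhesion molecule of simple epithelia, had the largest decrease of the 8 tested genes. It stood at 105.52, 109.72 and 104.32 FPKM in Vector and at 79.44, 80.61 and 74.33 FPKM in Limch1_OE. The groups lay far apart against their spread, with every Limch1_OE library below every Vector library. Means were 107 ± 2.84 and 78.1 ± 3.34 FPKM (SD, n = 3 each), 26.7% lower in Limch1_OE. The log2 fold change was -0.44 (SE 0.05, 95% interval -0.55 to -0.33, limma adjusted p = 0.000245). Of all tested genes 89.2% had a smaller absolute change.

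Cdh1 (ENSMUSG00000000303, chr8:106603351-106670246, plus strand), which encodes E-cadherin, was the most abundant of the 10 genes and fell by less. It stood at 287.31, 285.33 and 297.49 FPKM in Vector and at 248.8, 261.96 and 256.0 FPKM in Limch1_OE. No library of one group reached the other. Means were 290 ± 6.52 and 256 ± 6.59 FPKM (SD, n = 3 each), 11.9% lower in Limch1_OE. The log2 fold change was -0.18 (SE 0.04, 95% interval -0.28 to -0.08, limma adjusted p = 0.0143), and 55.9% of tested genes had a smaller absolute change. Without Vector replicate 3, the highest library, it was -0.16 and no longer passed (limma adjusted p = 0.0548). Its mean over the 6 libraries exceeded that of 98.3% of tested genes.

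Partners of these adhesion molecules went in both directions. In the list of cadherins and catenins 2 of 6 tested genes rose, 1 fell and 3 were not called, with a median of -0.08 against 0.04 over all tested genes. Ctnnb1, the beta-catenin gene, whose product binds the E-cadherin tail and also acts in Wnt signalling, rose from 149.09, 158.82 and 144.48 FPKM to 225.06, 224.07 and 207.61 FPKM. Its log2 fold change was 0.53 (limma adjusted p = 0.000161), the opposite direction to Cdh1. Jup, plakoglobin, a relative of beta-catenin at desmosomes and adherens junctions, fell by 0.25. Vcl, vinculin, which links junctions and focal adhesions to actin, rose by 0.18, a call that ended without Vector replicate 1 (limma adjusted p = 0.0598), Vector replicate 3 (0.0752) or Limch1_OE replicate 2 (0.0800). Cdh3, P-cadherin, stayed at or below 0.23 FPKM and Cdh11 at or below 0.02 FPKM. Cdh2, N-cadherin, was not among the genes listed and could not be tested.

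The list of EPCAM partners and proteases held 10 tested genes, of which 5 fell, 1 rose and 4 were not called (median -0.22). Cldn7, claudin-7, which binds EPCAM at the basolateral membrane, changed most, from 23.23, 24.88 and 24.8 FPKM to 5.82, 7.91 and 7.69 FPKM (log2 fold change -1.65, limma adjusted p = 4.77e-06). Epcam stood at -0.44 on the same scale, and the difference between the genes was not tested. The tetraspanin gene Cd9 fell by 0.36. St14, matriptase, a protease that can cleave EPCAM, fell by 0.42. Psen2, which encodes a catalytic subunit of gamma-secretase, rose by 0.40. The EPCAM sheddase genes Adam10 and Adam17 were at -0.02 and 0.07 and were not called.

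**Figure D2:**
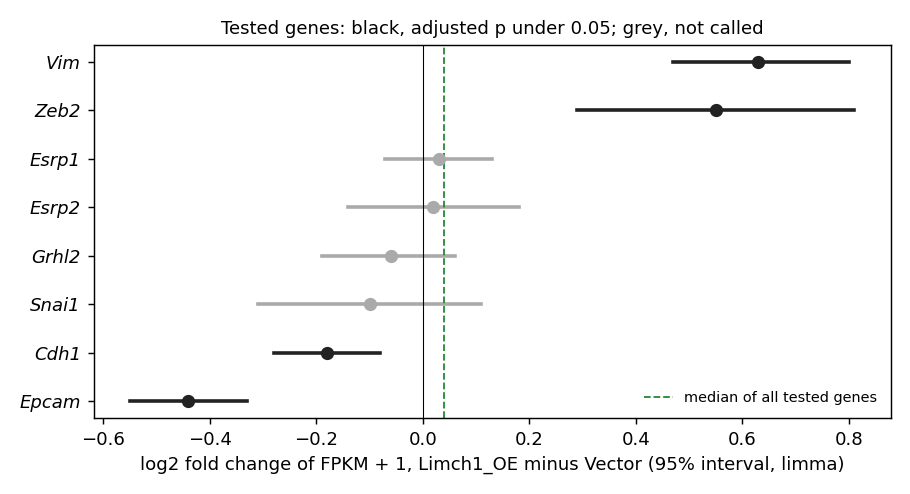
Log2 fold change of FPKM + 1 (points) with its 95% interval (lines) for the 8 tested genes, black where the limma adjusted p was under 0.05. Epcam at -0.44 and Cdh1 at -0.18 lie below 0 and Zeb2 at 0.55 and Vim at 0.63 above it, while the intervals of the other 4 genes span 0.

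Grhl2 (ENSMUSG00000022286, chr15:37233036-37363569, plus strand) was expressed and did not pass the test. It stood at 18.36, 17.5 and 18.19 FPKM in Vector and at 18.01, 17.01 and 16.59 FPKM in Limch1_OE, with overlapping groups. The log2 fold change was -0.06 (95% interval -0.19 to 0.06, limma adjusted p = 0.398). An antisense gene, Gm16136, reached at most 0.72 FPKM, and the use of strand in counting is not given in the sources used here.

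Esrp1 (ENSMUSG00000040728, chr4:11331933-11386783, minus strand) was the more abundant of the 2 splicing regulators. It stood at 77.14, 73.64 and 72.38 FPKM in Vector and at 75.38, 76.3 and 75.53 FPKM in Limch1_OE. The Limch1_OE values lay inside the Vector range. The log2 fold change was 0.03 (95% interval -0.07 to 0.13, limma adjusted p = 0.677), and 9.28% of tested genes had a smaller absolute change. Its 3 main listed transcripts were apportioned differently in Limch1_OE replicate 3. There ENSMUST00000108313 was at 12.33 FPKM and ENSMUST00000043781 at 30.44 FPKM, against 22.82 to 27.42 and 12.04 to 19.57 FPKM in the other 5 libraries, while the gene's sum did not stand apart. ENSMUST00000108311 held 38.8 ± 0.775% of the gene in Vector and 38.8 ± 2.31% in Limch1_OE (SD, n = 3 each).

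Esrp2 (ENSMUSG00000084128, chr8:106130319-106136974, minus strand) stood at 10.35, 11.73 and 9.91 FPKM in Vector and at 11.22, 10.75 and 10.44 FPKM in Limch1_OE. The groups overlapped, and the log2 fold change was 0.02 (95% interval -0.14 to 0.18, limma adjusted p = 0.854). The gene overlaps Nfatc3 on the opposite strand, which ranged from 22.84 to 28.48 FPKM. Reads in the stretch that the 2 genes share cannot be told apart without strand, and the length of that stretch was not examined. Esrp1 exceeded Esrp2 by the same factor in both groups within the spread, 7.01 ± 0.64 in Vector and 7.02 ± 0.267 in Limch1_OE.

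Transcript forms of known ESRP targets were compared as shares of their gene, in 13 classes with the Esrp1, Vim and Zeb2 transcripts included. No share passed the exact two-sided permutation test, which cannot go below 0.1 with 3 libraries against 3 (adjusted p at least 0.325). Fgfr2 transcripts with the IIIb exon stood at 21.27, 21.45 and 22.51 FPKM in Vector and at 13.16, 14.96 and 4.1 FPKM in Limch1_OE. That is 80.7 ± 1.94% of the gene in Vector and 61.6 ± 24.8% in Limch1_OE (SD, n = 3 each), a wide spread set by Limch1_OE replicate 3. Without that library the share differed by -4.8 percentage points instead of -19.1, and without Limch1_OE replicate 2 by -27.2. The table lists 3 of 10 annotated transcripts with the IIIb exon and 2 of 5 with the IIIc exon, and the latter stayed at or below 0.01 FPKM. Nearly all of the rest of Fgfr2 was 1 transcript annotated as a target of nonsense-mediated decay, ENSMUST00000153166. As a gene, Fgfr2 fell by 0.70 (limma adjusted p = 0.00436). Its most abundant transcript alone was at -1.12 and did not pass (limma adjusted p = 0.134).

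Epithelial forms of Cd44 and Enah were listed in every library of both groups. Cd44 transcripts with variable exons, the ESRP-dependent forms of this hyaluronan receptor, held 75.0 ± 1.94% of the gene in Vector and 73.6 ± 0.966% in Limch1_OE, and the standard form 24.7 ± 1.78% and 26.1 ± 1.14% (SD, n = 3 each). The Enah transcript with exon 11a was at 1.91, 1.76 and 2.13 FPKM in Vector and at 2.27, 2.43 and 2.54 FPKM in Limch1_OE. Its share was 20.6 ± 3.47% and 25.0 ± 1.73%, and the groups of shares overlapped. Coding Enah transcripts without the exon held 66.4 ± 1.19% and 59.1 ± 1.87%, with no overlap (exact permutation p = 0.1, adjusted p = 0.325). The forms of Ctnnd1, p120-catenin, were not separated by an exon with a clear name and were not compared.

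**Figure D3:**
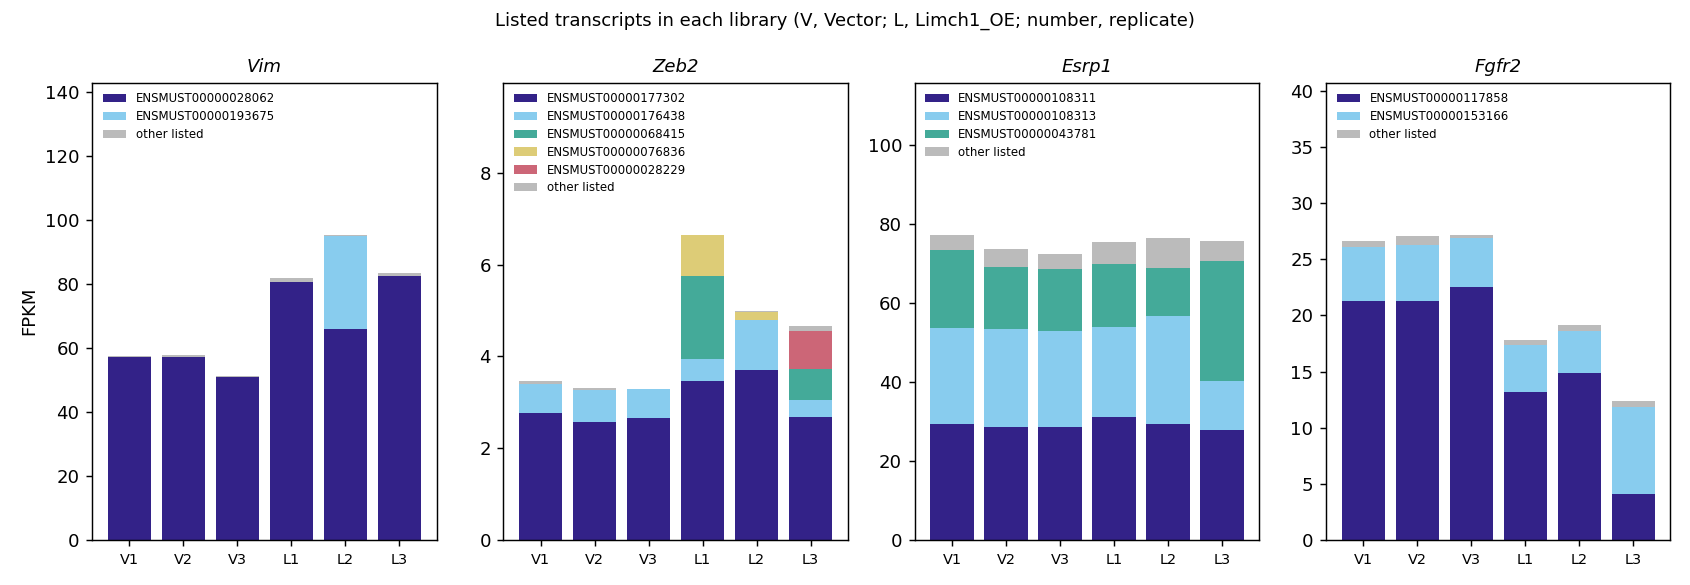
FPKM of the listed transcripts of Vim, Zeb2, Esrp1 and Fgfr2 stacked per library (V1 to V3, Vector; L1 to L3, Limch1_OE). ENSMUST00000193675 of Vim appears in Limch1_OE replicate 2 alone, ENSMUST00000028229, ENSMUST00000068415 and ENSMUST00000076836 of Zeb2 in Limch1_OE libraries alone, and Esrp1 and Fgfr2 are apportioned differently in Limch1_OE replicate 3.

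At the level of whole genes, the list of ESRP-regulated transcripts had 3 of 10 tested genes higher and 2 lower (median -0.01). Without single libraries 0 to 2 were higher and 1 to 2 lower. Besides Fgfr2, the genes called were Slk (0.24), a kinase, Ralgps2 (0.25), an exchange factor for Ral, Nf2 (0.14), the merlin tumour suppressor gene, and Exoc7 (-0.23), an exocyst subunit. Each of these 4 calls ended without Vector replicate 1 (limma adjusted p from 0.0524 for Exoc7 to 0.165 for Nf2) and without Vector replicate 2 (0.0555 to 0.0780). The calls of Slk, Ralgps2 and Nf2 also ended without Vector replicate 3 (limma adjusted p 0.0564 to 0.0926) or without Limch1_OE replicate 2 (0.0610 to 0.104). Those of Slk (0.0688) and Nf2 (0.0761) ended without Limch1_OE replicate 1, and that of Nf2 without Limch1_OE replicate 3 (0.0617). After median scaling 1 gene of the list was higher and 2 were lower. When only the most abundant transcript per gene was used, 0 of the 10 were higher and 0 lower.

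Of 12 other splicing regulators 3 rose and 1 fell (median 0.07), and none was called when only the most abundant transcript per gene was used. Hnrnpm, which can oppose ESRP1 on shared targets, rose by 0.27. Rbm47, an epithelial RNA-binding protein gene, fell from 8.01, 7.4 and 7.77 FPKM to 6.25, 6.09 and 5.94 FPKM (log2 fold change -0.30). Qk (quaking), a splicing factor that rises in EMT, was at 0.26, and the call ended without Vector replicate 2 (limma adjusted p = 0.0544) or with no filter on low values (0.0520). Hnrnpa1 was at 0.32 and was lost without Vector replicate 1 (0.0641), Limch1_OE replicate 1 (0.0548) or Limch1_OE replicate 2 (0.0913). The EMT-linked regulator Rbfox2 (-0.10) and the polypyrimidine-tract binding protein gene Ptbp1 (-0.05) were not called.

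Other epithelial transcription factors were lower or not called, with 0 of 10 tested genes higher, 3 lower and a median of -0.12. Klf4, a factor of differentiated epithelium, fell from 7.33, 7.13 and 6.54 FPKM to 4.57, 4.21 and 4.01 FPKM (log2 fold change -0.60, limma adjusted p = 0.000581). Tfap2a (AP-2alpha) fell by 0.31. Grhl1, the relative of Grhl2, was at -0.27 (limma adjusted p = 0.0410), and that call held on leaving out single libraries for Vector replicate 2 alone, with adjusted p of 0.0671 to 0.139 for the other 5. The luminal factor gene Gata3 (-0.10) and Elf3 (0.11), Ehf (-0.04) and Klf5 (-0.09) were not called, and Klf5 was called lower at -0.13 after median scaling. Ovol1 was at -0.27 and was not called (limma adjusted p = 0.0781). It was called lower after quantile normalization (-0.32, limma adjusted p = 0.0388) and with a replicate block (-0.27, limma adjusted p = 0.0497). Grhl3 and Trp63 stayed below 1 FPKM.

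Genes reported as GRHL2 targets, beside Cdh1 and Epcam, fell in 6 of 12 cases and rose in none (median -0.18), while Grhl2 itself was not called. When only the most abundant transcript per gene was used, 3 of the 12 were lower. Rab25, a GTPase of apical recycling, went from 32.57, 34.64 and 32.08 FPKM to 11.25, 11.68 and 12.26 FPKM (log2 fold change -1.42, limma adjusted p = 2.16e-07). Cldn3, claudin-3, fell from 66.39, 71.31 and 70.32 to 34.84, 37.39 and 39.52 FPKM (-0.88), and Cldn7 is the claudin described above. Prom2 fell by 0.42 and Marveld2 (tricellulin), of 3-cell junctions, by 0.28. Their most abundant transcripts alone did not pass, at -0.34 for Prom2 (limma adjusted p = 0.116) and -0.02 for Marveld2 (0.970). The desmosomal cadherin gene Dsg2 was at -0.19 (limma adjusted p = 0.0473). It kept its call without Limch1_OE replicate 1 and lost it without each other library (0.0871 to 0.130). Cldn4, at 545.81 to 710.28 FPKM the most abundant of the list, was at -0.17 and was not called. It was called lower without Limch1_OE replicate 3 (-0.25, limma adjusted p = 0.0291). The same held after quantile normalization (-0.24, limma adjusted p = 0.0368) and with a replicate block (-0.17, limma adjusted p = 0.0332).

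Of Zeb1, Zeb2, Snai1 and Snai2, Zeb2 alone passed the test. Zeb2 (ENSMUSG00000026872, chr2:44983632-45117395, minus strand), a zinc-finger homeodomain repressor, stood at 3.46, 3.32 and 3.3 FPKM in Vector and at 6.65, 4.99 and 4.66 FPKM in Limch1_OE. Every Limch1_OE library was above every Vector library, with replicate 1 the highest. Means were 3.36 ± 0.0872 and 5.43 ± 1.07 FPKM (SD, n = 3 each), a ratio of 1.62. The log2 fold change was 0.55 (SE 0.11, 95% interval 0.29 to 0.81, limma adjusted p = 0.00668). It was 0.42 without Limch1_OE replicate 1, the library with the highest mitochondrial share, and still passed (limma adjusted p = 0.00777).

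The transcripts of Zeb2 account for the increase unevenly, as the stacked plot of listed transcripts shows. Of 29 annotated transcripts 15 were listed. The main one, ENSMUST00000177302, stood at 2.77, 2.56 and 2.66 FPKM in Vector and at 3.46, 3.7 and 2.69 FPKM in Limch1_OE. Taken alone, it was at 0.22 and did not pass (limma adjusted p = 0.231). ENSMUST00000028229, ENSMUST00000068415 and ENSMUST00000076836 were listed at 0 in every Vector library and together at 2.71, 0.19 and 1.51 FPKM in Limch1_OE. The share of ENSMUST00000177302 was 79.3 ± 1.88% in Vector and 61.3 ± 11.5% in Limch1_OE (SD, n = 3 each), without overlap (exact permutation p = 0.1, adjusted p = 0.325). Zeb2os, transcribed from the opposite strand, stood at 0.32, 0.42 and 0.49 FPKM in Vector and at 0.67, 0.51 and 1.31 FPKM in Limch1_OE, and its part in the Zeb2 values was not tested.

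Snai1 (ENSMUSG00000042821, chr2:167538195-167542814, plus strand), the SNAIL repressor, stood at 8.41, 10.68 and 9.13 FPKM in Vector and at 7.96, 8.88 and 9.24 FPKM in Limch1_OE. The groups overlapped, and the log2 fold change was -0.10 (95% interval -0.31 to 0.11, limma adjusted p = 0.437). Snai2 (ENSMUSG00000022676, chr16:14705852-14709385), which encodes SLUG, stood at 0.11, 0 and 0.02 FPKM in Vector and at 0.32, 0.06 and 0.13 FPKM in Limch1_OE. With no filter on low values it was at 0.16 (limma adjusted p = 0.317).

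Zeb1 (ENSMUSG00000024238) ranged from 0.04 to 0.11 FPKM in Vector and from 0.05 to 0.06 FPKM in Limch1_OE. With no filter it was at -0.01 (limma adjusted p = 0.873). The table lists 3 of its 12 annotated transcripts, so the sum can miss part of the gene. Between the ZEB genes the order was the same in each library, with Zeb2 at least 3.3 FPKM and Zeb1 at most 0.11 FPKM.

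Of 9 tested genes on the list of other EMT transcription factors 0 were higher, 4 were lower and 5 were not called (median -0.09). Sox9 fell by 0.48 and Twist1, a basic helix-loop-helix factor gene, by 0.42, from 9.49, 11 and 9.22 FPKM to 8.01, 7.06 and 6.39 FPKM. Foxc2 was at -0.30, a call kept on leaving out single libraries for Vector replicate 1 alone (limma adjusted p 0.0664 to 0.117 for the other 5). Tcf4 was at 0.12, and without Limch1_OE replicate 3 it was called higher at 0.20 (limma adjusted p = 0.0398). Twist2 and Prrx1 were at or below 0.06 FPKM.

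The cofactor and turnover genes of SNAIL and ZEB proteins mostly did not pass, with 2 of 12 higher, 1 lower and a median of -0.08. Gsk3b, a kinase that marks SNAIL for degradation, rose from 14.01, 14.33 and 14.47 FPKM to 19.75, 19.63 and 17.38 FPKM (log2 fold change 0.38, limma adjusted p = 0.00226). Ezh2, a histone methyltransferase gene, fell by 0.33, and its most abundant transcript alone did not pass (-0.55, limma adjusted p = 0.456). Ctbp1, a corepressor of ZEB proteins, was at 0.19. That call ended without Vector replicate 1 (limma adjusted p = 0.0508), Vector replicate 3 (0.0628) or Limch1_OE replicate 2 (0.0606). Hdac1 and Fbxl14, at -0.17 and -0.16, were called only after median scaling (-0.21 and -0.19).

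**Figure D4:**
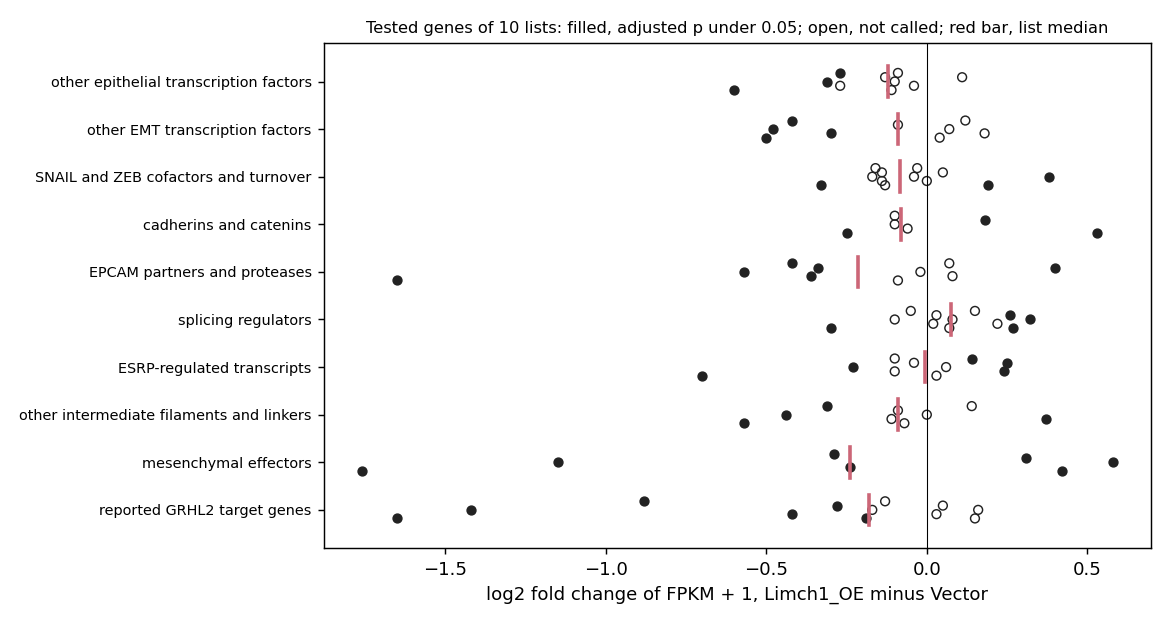
Log2 fold change of FPKM + 1 for each tested gene of 10 lists around the epithelial and EMT genes, filled where the limma adjusted p was under 0.05, with a red bar at each list's median. The medians lie between -0.24 and 0.07, and the lowest points are Mmp9 at -1.76, Cldn7 at -1.65 (on 2 lists) and Rab25 at -1.42.

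Vim (ENSMUSG00000026728, chr2:13573927-13582826, plus strand) had the largest increase of the 8 tested genes on the log2(FPKM + 1) scale, although the ratio of means was larger for Zeb2 (1.62), and with a pseudocount of 0.1 Zeb2 was at 0.66 and Vim at 0.64. It stood at 57.36, 57.88 and 51.16 FPKM in Vector and at 81.64, 95.22 and 83.19 FPKM in Limch1_OE. The lowest Limch1_OE library was well above the highest Vector library. Means were 55.5 ± 3.74 and 86.7 ± 7.43 FPKM (SD, n = 3 each), a ratio of 1.56. The log2 fold change was 0.63 (SE 0.07, 95% interval 0.47 to 0.80, limma adjusted p = 0.000319), and 95.3% of tested genes had a smaller absolute change. The main transcript ENSMUST00000028062 held nearly all of the gene except in Limch1_OE replicate 2, where 28.95 FPKM were assigned to ENSMUST00000193675, which was at 0 in the other 5 libraries. ENSMUST00000028062 alone was at 57.2, 57.26 and 50.71 FPKM in Vector and at 80.52, 65.91 and 82.54 FPKM in Limch1_OE, and it also passed (log2 fold change 0.46, limma adjusted p = 0.0315).

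Of 9 tested genes of other intermediate filaments and their linkers 1 rose, 3 fell and 5 were not called (median -0.09). Krt7, a simple-epithelial keratin gene, rose by 0.37, from 213.86, 227.36 and 199.52 FPKM to 256.73, 289.05 and 282.11 FPKM, but not with its most abundant transcript alone (0.26, limma adjusted p = 0.170). Without Limch1_OE replicate 1 Krt18 was also called higher (0.20, limma adjusted p = 0.0117). Plec (plectin), which links filaments to junctions, fell by 0.57, and Nes (nestin), a partner of vimentin in mixed filaments, by 0.31. Lmna, the lamin A/C gene, fell by 0.44, but its most abundant transcript alone was at 0.13 and was not called, and with no filter on low values the sum did not pass (limma adjusted p = 0.0605).

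Mesenchymal effector genes divided. All 7 tested genes passed, 3 higher and 4 lower, with a median of -0.24. Sparc, a matricellular protein gene, rose by 0.58, the fibroblast-specific protein gene S100a4 by 0.42 and the fibronectin gene Fn1 by 0.31, the latter not with its most abundant transcript alone (0.29, limma adjusted p = 0.198). The gelatinase gene Mmp9 went the other way, from 93.02, 92.7 and 83.49 FPKM to 24.84, 25.7 and 26.93 FPKM (log2 fold change -1.76, limma adjusted p = 6.38e-08). The receptor kinase gene Axl (-0.29) and the integrin gene Itga5 (-0.24) also fell, Itga5 no longer so without Vector replicate 2 (limma adjusted p = 0.0565) or Limch1_OE replicate 2 (0.0524). Smooth-muscle and collagen genes (Acta2, Tagln, Col1a1, Col1a2) and Mmp2 were at or below 0.19 FPKM.

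Over the 6 libraries the means were 273 FPKM for Cdh1, 92.3 for Epcam, 75.1 for Esrp1, 71.1 for Vim, 17.6 for Grhl2, 10.7 for Esrp2, 9.05 for Snai1, 4.40 for Zeb2, 0.107 for Snai2 and 0.06 for Zeb1. In Vector, Vim was below Epcam and Esrp1 in every library. In Limch1_OE, Vim was above both in every library, and Epcam and Esrp1, which did not overlap in Vector, overlapped. Esrp2 and Snai1 overlapped in Vector and not in Limch1_OE, and Snai2 and Zeb1 overlapped in both groups, with the mean of Zeb1 the higher in Vector and that of Snai2 the higher in Limch1_OE.

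Ratios within a library set the genes against each other, and those of Cdh1 and Epcam to Vim join opposite movements. Cdh1 to Vim was 5.01, 4.93 and 5.81 in Vector and 3.05, 2.75 and 3.08 in Limch1_OE, means of 5.25 ± 0.49 and 2.96 ± 0.18 (SD, n = 3 each). Epcam to Vim crossed 1, at 1.84, 1.9 and 2.04 in Vector and 0.973, 0.847 and 0.893 in Limch1_OE. Grhl2 to Zeb2 was 5.36 ± 0.13 and 3.23 ± 0.454, and Snai1 to Zeb2 2.8 ± 0.394 and 1.65 ± 0.408. Epcam to Cdh1 was 0.367 ± 0.0169 and 0.306 ± 0.0146. None of these 5 ratios overlapped between groups, and each had an exact two-sided permutation p = 0.1, the smallest possible, or 0.12 adjusted over the 6 ratios compared. Each holds at least 1 gene called above, so the ratios restate those calls and are not separate support. Grhl2 and Snai1 were not called, so their ratios to Zeb2 mainly follow Zeb2, and Epcam and Cdh1 both fell. Esrp1 to Esrp2 was the sixth (exact permutation p = 1).

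**Figure D5:**
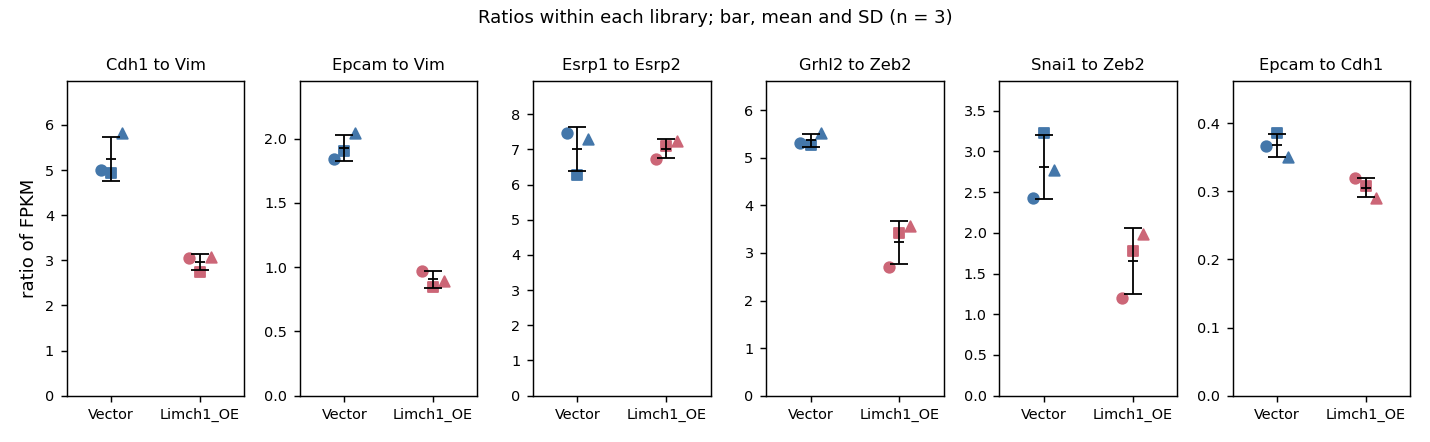
Ratios of FPKM within each library for 6 pairs of genes (linear axes from 0), points for libraries with the mean and SD of each group. The Epcam to Vim ratio lies between 1.84 and 2.04 in Vector and between 0.847 and 0.973 in Limch1_OE, while Esrp1 to Esrp2 overlaps.

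The genes with profiles nearest to those of Cdh1 and Vim were found by Euclidean distance between log2(FPKM + 1) profiles over the 6 libraries, each centred on its own mean, among 10435 tested protein-coding genes. For Vim they were Mycl and Aldoc (distance 0.104 each), C3 (0.107), St3gal3 (0.125) and Sparc (0.136). All 5 were higher in Limch1_OE, and C3, the complement component gene, went from 79.34, 81.45 and 66.0 FPKM to 107.1, 129.94 and 114.48 FPKM. For Cdh1 they were Gars (0.021), Rer1 (0.030), Gas8 (0.034), Tk2 (0.035) and H2afz (0.047), all between -0.17 and -0.19. Likeness over 6 libraries is a description, since these profiles consist mainly of 1 difference between groups.

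Genes near the 10 on the chromosome were counted within 1 Mb on either side. Over all tested genes 20.2% were higher and 14.4% lower. Near Epcam, which itself fell, 7 of 14 tested genes were higher and 0 lower, and near Cdh1 5 of 42 were higher and 5 lower. Near Grhl2 5 of 10 were higher and 1 lower, near Esrp1 2 of 17 were higher and 3 lower, and near Esrp2 7 of 52 were higher and 7 lower. Near Snai1 4 of 20 were higher and 2 lower, near Snai2 3 of 11 were higher and 1 lower, and near Zeb1 0 of 8 were higher and 1 lower. The single tested neighbour of Zeb2 was higher, and near Vim 2 of 5 were higher and 0 lower. These counts are descriptions and were not tested.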

How the data were processed

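RNA-seq values of 6 libraries, 3 Vector and 3 Limch1_OE, were taken as the authors deposited them, as FPKM per transcript. STAR 2.7.10, StringTie 2.2.1, featureCounts 2.0.1 and fastp 0.23.2 are named, with mm10, in the submitters' processing notes. Their annotation, strand use, treatment of multiply mapped reads and depth are not stated in the sources used here, so no count test was run and precision rests on the SD over libraries. Listed transcripts were summed per gene identifier and named with GENCODE M21, which matched 26033 of 26094. Groups came from the sample titles. limma 3.58.1 in R 4.3.3 (lmFit, eBayes with intensity trend, checked on simulated data) was run on log2(FPKM + 1), two-sided. Single values were compared by exact permutation. The genes and lists were chosen with earlier results of these data known. Named were the 10 genes, Limch1, up to 5 called genes per list by absolute change, partners a sentence needed, and the 5 nearest profiles of Cdh1 and of Vim. Some genes that this rule names are not reported here, although the counts of their lists include them. Alternatives were the pseudocount, filter, scaling, most abundant transcript, trend, replicate block and omission of each library.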

Additional observations from a re-analysis of the deposited data

How the results depend on the processing

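Epcam (-0.48 to -0.39) and Vim (0.46 to 0.70) passed under all 14 alternatives, and Grhl2, Esrp1, Esrp2 and Snai1 under none. Cdh1 ranged from -0.22 to -0.12 and lost its call without Vector replicate 3, so the number of the 10 genes called lower ranged from 1 to 2 when single libraries were left out. Zeb2 ranged from 0.22 to 0.66. The number called higher was 1 with a filter at 5 FPKM, which left Zeb2 untested, and 1 with only the most abundant transcript per gene. In the latter case Vim kept its call and Zeb2, at 0.22, did not pass (limma adjusted p = 0.231). Why the Zeb2 transcripts differ was not tested. With the most abundant transcript 997 genes were higher and 999 lower, against 2388 and 1706, and Lmna (0.13) and Postn (-0.34) changed sign. Without single libraries 1597 to 2225 genes were higher and 1285 to 1553 lower. Higher genes made up 58.3% of all calls, 47.9% after median scaling and 49.9% with the most abundant transcript. Over 106 genes of the lists and nearest profiles, 1348 of 1472 values kept direction and side of the threshold, 108 lost the call, 14 gained one and 2 reversed.

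Same-numbered libraries correlated at -0.002, 0.046 and 0.059 in their deviations from group means. Vector replicates 2 and 3 correlated best with the Limch1_OE library of the same number, and Vector replicate 1 with Limch1_OE replicate 2 (0.027). These correlations were weak and the labels give a number only, so the numbers were not taken to pair the libraries. With the replicate block 2219 genes were higher and 1589 lower, and 2 of the 10 genes were higher and 2 lower. The unknown depth limits what can be said of Zeb1 and Snai2.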
